A study of Mus musculus with 6 samples.

Results

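The transcription factor p53 and 9 of its target genes were followed in RNA-seq libraries of cultured mouse satellite cells (SCs), the stem cells of skeletal muscle. The 10 genes were chosen by name (Trp53, Mdm2, Mdm4, Ccng1, Gadd45a, Sesn1, Sesn2, Zmat3, Trp53inp1 and Phlda3) out of 35976 genes in the expression tables. There were 3 libraries of NF-YA cKO mice and 3 of NF-YA fl/fl mice. NF-YA cKO mice carry a floxed NF-YA gene together with Pax7-CreERT2, so that tamoxifen deletes NF-YA in cells that express Pax7, the gene that defines SCs. NF-YA fl/fl mice carry the same floxed alleles without Cre and are the controls. Both groups received tamoxifen, dissolved at 20 mg/ml, and all mice were 5 to 7 weeks old by their labels. SCs were enriched by magnetic depletion of other cell types and were cultured in growth medium before RNA extraction. The question was how the loss of NF-YA, the subunit through which the trimer NF-Y recognizes DNA, changed the transcripts of these cells.

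p53, the product of Trp53, is kept low in unstressed cells by Mdm2, a ubiquitin ligase that marks it for degradation, and by the related Mdm4, which binds and inhibits it. After DNA damage and other stresses p53 accumulates and activates genes that halt the cell cycle, repair DNA, adjust metabolism or trigger cell death, and it also activates Mdm2, which closes a feedback loop. Most control of p53 acts on the protein, so the level of its mRNA does not measure its activity. NF-Y binds the CCAAT box, a common element of promoters that reads ATTGG on the opposite strand.

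The promoter letters that match the recognition elements of both factors are shown first, because NF-Y is the factor removed and p53 the factor that these genes share. RefSeq (GRCm38.p6, the mm10 build) held promoters of 8 of the 10 genes, 10 promoters in all, and 250 bases before each start in that table were searched on both strands. These starts can differ from other annotated ones. The start used for Trp53 was 69580359, whereas the gene interval given below begins at 69580348, so that the CCAAT match shown for Trp53 lies within that interval. The upstream Sesn1 start was 41810574, whereas GENCODE begins that transcript at 41809935, which places the Sesn1 match at the upstream start inside the GENCODE transcript. A p53 half-site, the 10-base consensus of which p53 binds a pair, lay in 5 of the 10 promoters, each of a different gene, against 7.13% of 32851 mouse promoters. The genes were chosen as p53 and its targets, so a share above that of all promoters was favoured by the choice. Pairs of half-sites, and elements outside these 250 bases, were not searched. The match is in capitals in the 50-base windows below, each printed 5′ to 3′ on the strand of its gene.
Trp53, chr11:69580264-69580313, plus strand: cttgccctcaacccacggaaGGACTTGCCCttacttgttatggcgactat
Mdm2, chr10:117710915-117710964, minus strand: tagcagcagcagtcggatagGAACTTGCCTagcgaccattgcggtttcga
Ccng1, chr11:40755442-40755491, minus strand: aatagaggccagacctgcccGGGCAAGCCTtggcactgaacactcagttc
Gadd45a, chr6:67037418-67037467, minus strand: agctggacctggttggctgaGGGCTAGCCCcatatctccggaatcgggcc
Sesn1, downstream start, chr10:41887246-41887295, plus strand: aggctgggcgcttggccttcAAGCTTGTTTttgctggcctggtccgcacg

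CCAAT on either strand lay in 7 of the 10 promoters, those of 6 genes, against 33.8% of all promoters. In the windows below, shown because NF-YA is the deleted gene, the CCAAT or ATTGG is in capitals.
Trp53, chr11:69580341-69580358, plus strand: ggttgctgggATTGGgac
Mdm2, chr10:117710816-117710840, minus strand: cccgcctcctATTGGtccaggaggc
Gadd45a, chr6:67037479-67037503, minus strand: tttgcataacCCAATggcctgactg
Ccng1, chr11:40755395-40755419, minus strand: cggaaatgctCCAATgagagaggct
Sesn1, upstream start, chr10:41810367-41810391, plus strand: tgacactgtgATTGGcggacactgc
Sesn1, downstream start, chr10:41887338-41887362, plus strand: gcgggccggcATTGGcgggcgcgcc
Sesn2, chr4:132510535-132510559, minus strand: caggcatctgATTGGctgcgccgtg
Ccng1 held a second CCAAT nearer to its start and another farther from it, and Sesn2 held another farther upstream. Phlda3 and Mdm4 held neither motif in these windows, which says only that the letters are not there. The promoters of Zmat3 and Trp53inp1 were not analysed here. Binding was not measured in these data, so each match is a description of sequence.

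The libraries held 26936230 to 41118984 expected counts, and 3 counts corresponded to 0.0705 to 0.115 CPM (counts scaled to library size). The level of the whole Nfya gene differed by -0.059 on the log2 scale (FDR 0.814), whereas the entry that the authors had added for the deleted allele took 27.3% to 40.5% of the Nfya TPM in NF-YA cKO libraries and no count in NF-YA fl/fl libraries, so that most of it in NF-YA cKO stayed assigned to intact transcripts. Lists of marker genes differed between the genotypes, by the stricter rule given below. All 10 differentiated muscle markers were lower in NF-YA cKO (summed level 49.4 to 135 CPM against 9304 to 12425 CPM). 6 of 7 proliferation markers were higher (1640 to 1752 CPM against 605 to 1147 CPM), as were 7 of 8 macrophage markers (141 to 275 CPM against 5.73 to 15.4 CPM) and 3 of 3 Schwann cell markers (12.6 to 17 CPM against 4.58 to 7.19 CPM), with none of these at 3 counts or fewer in every library. By the same rule 1 of 5 endothelial markers was higher (Kdr) and 1 lower (Vwf), and 1 of 5 fibro-adipogenic markers was higher (Lum). Over all tested genes the rule called 4.65% higher and 7.67% lower. The summed level of 8 satellite cell and myoblast markers was 1450 to 1631 CPM against 2223 to 3878 CPM. Among them Pax7, which defines SCs, and Vcam1 rose at an FDR under 0.05 (0.94 and 0.86 on the log2 scale), Cdh15, Itga7 and Des fell (-1.78, -1.25 and -2.09), Myf5 and Myod1 did not pass, and Chodl was too low to be tested. The controls varied more than the NF-YA cKO libraries (biological coefficient of variation 0.310 against 0.105), and NF-YA fl/fl replicate 3 had a summed fibro-adipogenic marker level of 37.9 CPM against 199 and 265 CPM in the other controls. Xist, the RNA of X inactivation, was at 843 CPM in the NF-YA cKO libraries and at 0.389 CPM in the controls, and the Y-linked Ddx3y at 0.0636 and 84.9 CPM, although the methods describe male mice. Sex and genotype therefore cannot be told apart. The part of marker genes or of sex in the results below was not tested, and in these bulk samples fewer cells of a type and less RNA per cell cannot be told apart.

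Of the 10 genes, Trp53 rose and Gadd45a, Zmat3 and Phlda3 fell in NF-YA cKO at an FDR under 0.05, while the inhibitors Mdm2 and Mdm4, the cyclin Ccng1, both Sestrins and Trp53inp1 did not pass. The share of genes at this FDR was 38.6% of the 17348 tested (19.7% higher and 18.9% lower), so 4 of 10 is close to the background. All 10 genes were well above the filter on low counts. The study's methods set a stricter rule, an FDR under 0.01 together with a log2 change beyond 1 in either direction. This rule called 12.3% of tested genes and, in edgeR, DESeq2 and limma alike, 0 of the 10 genes. At an unadjusted p under 0.05 edgeR placed 1 gene higher and 4 lower (48.7% of all tested genes pass at that level in either direction). Without NF-YA fl/fl replicate 2, Gadd45a passed the stricter rule. Log2 fold changes were below 0 for 9 of 10 genes, with a median of -0.22 beside -0.016 over all tested genes. As the latter median is below 0, most tested genes were below 0 too. Of the 9, Mdm2, Sesn2 and Trp53inp1 (-0.014, -0.013 and -0.0081) were nearer to 0 than that median and changed sign in some alternatives. Groups of libraries did not overlap for 1 gene that was higher and 5 that were lower, where 55.3% of all tested genes do not overlap (29.1% higher and 26.2% lower). The number of genes that fell was 1 without any single NF-YA cKO replicate and 5 without NF-YA fl/fl replicate 3, which then included Ccng1 and Sesn1. The share of all tested genes at this FDR, in either direction, moved likewise. It was 23.6%, 21.7% and 24.9% without NF-YA cKO replicate 1, 2 and 3, and 49.8% without NF-YA fl/fl replicate 3.

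**Figure D1:**
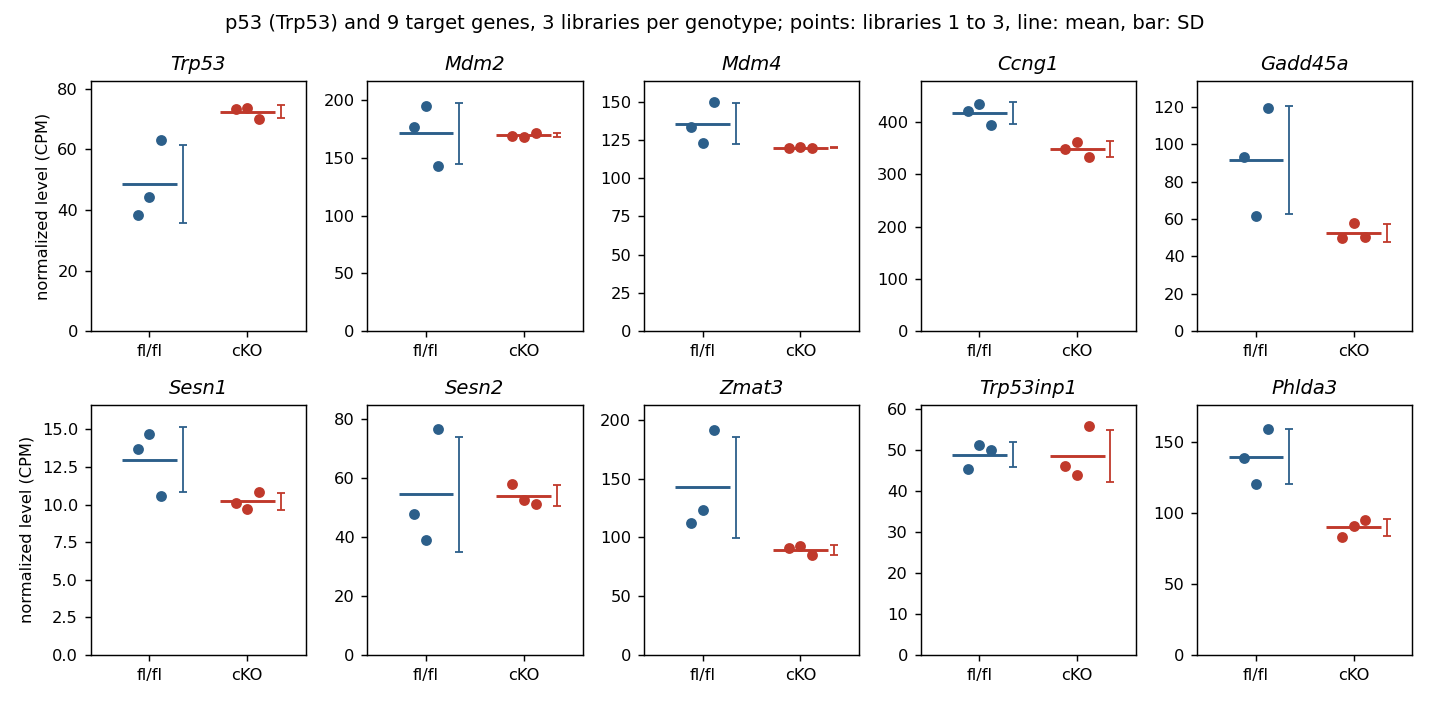
Normalized level (CPM, linear axes from 0) of each of the 10 genes, with 1 point per library, a line at the mean and a bar of 1 SD to each side (n = 3 per genotype). The Trp53 points of NF-YA cKO (69.9 to 73.8 CPM) lie above all NF-YA fl/fl points, those of Mdm4, Ccng1, Gadd45a, Zmat3 and Phlda3 lie below them, and the NF-YA fl/fl points are spread wider for most genes.

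Levels of different genes were set side by side in TPM, which is per transcript length. In NF-YA fl/fl, Ccng1 was the most abundant at 170 ± 33.9 TPM (SD, n = 3), followed by Phlda3 at 120 ± 6.67, Gadd45a at 94.7 ± 12.9, Mdm2 at 57.8 ± 16.4 and Trp53 at 33.3 ± 5.95 TPM. Sesn2 (23.9 ± 4.12 TPM), Mdm4 (22.9 ± 2.05 TPM) and Zmat3 (20.5 ± 3.68 TPM) came next, and Trp53inp1 (10.7 ± 2.36 TPM) and Sesn1 (5.22 ± 1.74 TPM) were the lowest. The ranges of the neighbours Trp53 and Sesn2, Sesn2 and Mdm4, and Mdm4 and Zmat3 overlapped in the controls, and those of the other neighbours did not. In NF-YA cKO the order was the same at both ends, with Ccng1 at 126 ± 7.81 TPM, Phlda3 at 73.8 ± 6.34 TPM and Sesn1 at 3.86 ± 0.45 TPM. There Mdm2 (56.0 ± 4.57 TPM) and Gadd45a (53 ± 0.82 TPM) overlapped, followed by Trp53 at 47.5 ± 3.69 TPM. These values describe the libraries and were not tested between genes.

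Trp53 lies on chromosome 11 (69580348 to 69591873, plus strand). Its level was 73.4, 73.8 and 69.9 CPM in the NF-YA cKO libraries and 38.3, 44.4 and 63.2 CPM in the controls (replicates 1 to 3 in order, here and below). The 3 NF-YA cKO libraries were nearly equal and all above the controls, among which replicate 3 came closest to them. Trp53 rose by 0.57 on the log2 scale (SE 0.18, FDR 0.0447). The call was lost without any one of NF-YA cKO replicates 1, 2 and 3 (FDR 0.121, 0.136 and 0.103) or NF-YA fl/fl replicates 1 and 2 (FDR 0.111 and 0.108), and without NF-YA fl/fl replicate 3 the log2 fold change was 0.80 (FDR 0.000752). The main transcript, NM_011640.3, which codes for 390 amino acids, took 83.2% ± 1.02 of the Trp53 TPM in NF-YA cKO and 81.8% ± 1.98 in the controls (exact permutation test, two-sided, p = 0.5). The shorter coding form NM_001127233.1 (381 amino acids), which carries the alternatively spliced end, took 10.8% ± 1.02 and 11.4% ± 3.12 (exact permutation test, p = 0.8). The proportions of the transcripts thus differed by less than their spread.

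The head-to-head neighbour of Trp53 is Wrap53, which lies 97 bases away on chromosome 11 and is transcribed in the opposite direction. Wrap53 rose by 0.44 on the log2 scale (SE 0.12, FDR 0.0249), from 11.4 to 15.5 CPM. This call was lost without any one of NF-YA cKO replicates 1, 2 and 3 (FDR 0.0818, 0.144 and 0.113) or NF-YA fl/fl replicate 1 (FDR 0.0666). The Wrap53 call was also lost with limma on log2(TPM + 1) and log2(TPM + 0.1) (FDR 0.127 and 0.185). With the replicate number as a block its FDR was 0.0776. Among 14125 genes of at least 1 CPM, those whose profile over the 6 libraries was nearest to that of Trp53 were Ddx39b, Ctc1, Unc119, Hnrnpd and Ddx56, with root mean square differences in centred log2 CPM of 0.0419 to 0.0708.

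The inhibitors of p53 were measured next. Mdm2 (chromosome 10, 117688875 to 117710758, minus strand) was at 169, 168 and 172 CPM in the NF-YA cKO group and 176, 195 and 143 CPM in the controls. The control values lay on both sides of the NF-YA cKO values. Its log2 fold change was -0.014 (SE 0.13, FDR 0.941) and ranged from -0.13 to 0.080 when single libraries were left out, turning its sign without NF-YA fl/fl replicate 1 or 2. The 5 nearest profiles to that of Mdm2 were those of Tmem198b, Sertad4, Anxa7, Atp1b3 and Elmo2 (root mean square differences of 0.0371 to 0.0425).

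Mdm4 (chromosome 1, 132986105 to 133030587, minus strand) was at 119, 120 and 120 CPM in NF-YA cKO SCs, against 134, 123 and 150 CPM in control SCs. All NF-YA cKO libraries were below all controls, but the gap to NF-YA fl/fl replicate 2 was small. Its log2 fold change of -0.18 (SE 0.10) did not pass the test (FDR 0.188). It was -0.25 without NF-YA fl/fl replicate 2 (FDR 0.0548) and -0.11 without NF-YA fl/fl replicate 3 (FDR 0.246). In the GENCODE annotation, where the Mdm4 interval is 132959484 to 133030561, the pseudogene Gm29257 overlaps Mdm4 on the opposite strand.

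The balance of the 3 genes was examined as ratios of TPM within each library. The ratio of Mdm2 to Mdm4 was 2.86, 2.85 and 2.93 in NF-YA cKO and 2.72, 2.89 and 1.89 in the controls (exact permutation test on log2 ratios, two-sided, p = 0.3). The ratio of Mdm2 to Trp53 was 1.16, 1.15 and 1.23 in NF-YA cKO and 2.28, 1.95 and 1.11 in the controls (exact permutation test, p = 0.4). In both ratios NF-YA fl/fl replicate 3 was below the NF-YA cKO libraries. Without that library the log2 difference of the Mdm2 to Mdm4 ratio was 0.041, compared with 0.23 over all libraries, and that of the Mdm2 to Trp53 ratio was -0.84, compared with -0.53. Without NF-YA fl/fl replicate 2 the Mdm2 to Mdm4 difference was 0.35, without NF-YA fl/fl replicate 1 the Mdm2 to Trp53 difference was -0.32, and with 3 libraries against 3 the smallest possible p is 0.1.

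Transcript shares were compared next. Of the 15 transcripts with a share of at least 10%, 5 had shares that did not overlap, each at the smallest possible p of 0.1 (exact permutation test). Over all 27890 such transcripts of tested genes with several transcripts, 21.1% did not overlap. Of the 5, 3 belong to Mdm2 or Mdm4 and the other 2 are the complementary shares of Sesn1, which make a single difference. The main Mdm2 transcript, NM_010786.4, had shares that were close at the edge of the groups, as it took 72.3%, 73.6% and 69.7% of the Mdm2 TPM in NF-YA cKO and 61.3%, 58.0% and 68.9% in NF-YA fl/fl. The predicted long form XM_017313822.1 took 8.69% ± 0.777 and 13.9% ± 6.0, with 20.8% in NF-YA fl/fl replicate 2 alone. Without that library the difference narrowed from -5.22 to -1.77 percentage points.

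For Mdm4, the transcript NR_126506.1, which is noncoding by its RefSeq accession, took 35.5%, 41.6% and 38.7% of the gene's TPM in NF-YA cKO and 47.4%, 57.0% and 50.4% in NF-YA fl/fl. It was the most abundant Mdm4 transcript in every control library and in NF-YA cKO replicate 2, but not in NF-YA cKO replicates 1 and 3. The coding transcript NM_001302803.1 took 44.1% ± 5.54 in NF-YA cKO and 36.1% ± 4.44 in NF-YA fl/fl, with overlap (exact permutation test, p = 0.2). GENCODE links both of these accessions to the same transcript, which codes for 489 amino acids, so the noncoding label rests on RefSeq alone. These long transcripts share most of their sequence and differ in few reads, so that the shares are estimates of a split made by the authors' software. Ccng1, Trp53inp1 and Zmat3 also have more than 1 transcript, and none of their shares separated the genotypes (exact permutation tests, p = 0.5, 0.6 and 0.9), while Gadd45a, Sesn2 and Phlda3 have a single transcript in these files.

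**Figure D2:**
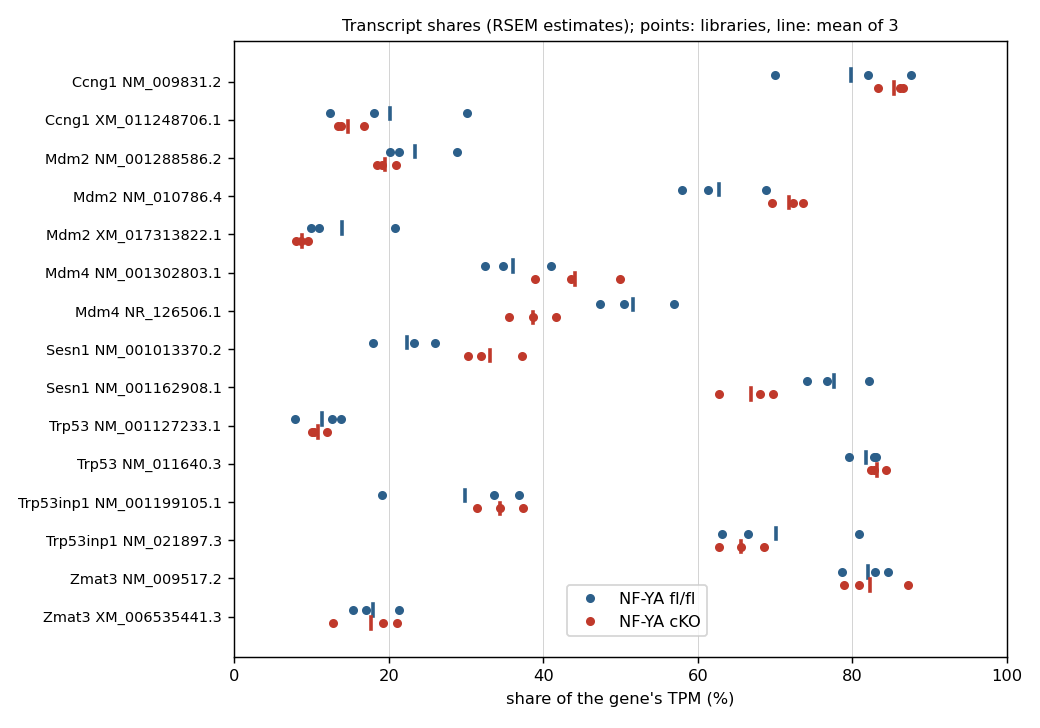
Share of the gene's TPM (percent) taken by each of the 15 transcripts with a mean share of at least 10% in either genotype, with 1 point per library and a line at the mean (n = 3). The Mdm4 transcript NR_126506.1 (noncoding by its RefSeq accession) lies lower in all 3 NF-YA cKO libraries (35.5% to 41.6%) than in the controls (47.4% to 57.0%), and the shares of the Trp53, Ccng1, Trp53inp1 and Zmat3 transcripts overlap.

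The targets linked to the cell cycle were Ccng1 and Gadd45a. Ccng1, which encodes cyclin G1, a partner of a phosphatase that acts on Mdm2, lies on chromosome 11 (40748552 to 40755309, minus strand). It was at 349, 363 and 332 CPM in the NF-YA cKO libraries, and the controls were at 421, 435 and 394 CPM, so that the genotypes did not overlap. Its log2 fold change of -0.26 (SE 0.09) missed the threshold (FDR 0.0609). Without NF-YA fl/fl replicate 3 it was -0.30 (FDR 0.0147), and with DESeq2 it was -0.28 (FDR 0.0202).

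Gadd45a (chromosome 6, 67035096 to 67037407, minus strand) encodes a stress protein that binds PCNA and inhibits the mitotic kinase Cdk1. It was at 49.7, 57.9 and 50.2 CPM in the NF-YA cKO group and 93.0, 61.7 and 119 CPM in the controls. The controls spread widely, and replicate 2 was only slightly above the NF-YA cKO libraries. Gadd45a fell by 0.80 on the log2 scale (SE 0.23, FDR 0.0319), the largest change of the 10 genes over all 6 libraries. The FDR was 0.0906, 0.0656 and 0.0899 without NF-YA cKO replicate 1, 2 or 3 and 0.0838 without NF-YA fl/fl replicate 1, and the log2 fold change was -1.02 without NF-YA fl/fl replicate 2 and -0.56 without NF-YA fl/fl replicate 3. The gene E230016M11Rik overlaps Gadd45a on the opposite strand in the GENCODE annotation.

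The Sestrins Sesn1 and Sesn2 encode stress-induced proteins that restrain mTORC1. Sesn1 (chromosome 10, 41810574 to 41908436, plus strand) was the least abundant of the 10 genes, at 10.1, 9.70 and 10.9 CPM in NF-YA cKO SCs, against 13.7, 14.7 and 10.6 CPM in control SCs. NF-YA fl/fl replicate 3 fell among the NF-YA cKO libraries. The log2 fold change of -0.35 (SE 0.16) did not pass the test (FDR 0.133), and without that control it was -0.48 (FDR 0.0138).

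The 2 Sesn1 transcripts start at different first exons. The window of the downstream start holds the p53 half-site printed above, and a CCAAT match was printed for both Sesn1 starts. The form with the downstream start (first base 41887439, 492 amino acids, NM_001013370.2) took 32.0%, 37.2% and 30.3% of the Sesn1 TPM in NF-YA cKO and 25.9%, 17.9% and 23.3% in NF-YA fl/fl. The form with the upstream start (first base 41809935, 551 amino acids, NM_001162908.1) took the remainder, 66.9% ± 3.62 and 77.6% ± 4.08. The shares did not overlap, with a difference of 10.8 percentage points (exact permutation test, two-sided, p = 0.1), and it stayed between 8.57 and 12.6 percentage points when single libraries were left out. The TPM of the whole gene was 3.86 ± 0.45 in NF-YA cKO and 5.22 ± 1.74 in NF-YA fl/fl. A larger share therefore need not mean more of that form, and the levels of the forms were not compared.

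Sesn2 (chromosome 4, 132492804 to 132510456, minus strand) was at 58.0, 52.8 and 51.3 CPM in the NF-YA cKO libraries, and the controls were at 47.9, 39.2 and 76.6 CPM. The controls lay on both sides of the NF-YA cKO libraries, with replicate 3 the highest of all 6. Sesn2 had a log2 fold change of -0.013 (SE 0.24, FDR 0.970), and without NF-YA fl/fl replicate 3 one of 0.31 (FDR 0.0558). The RNA gene Gm12981 overlaps Sesn2 on the same strand in the GENCODE annotation, and 9930024M15Rik likewise overlaps Sesn1 on the same strand.

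Zmat3 (chromosome 3, 32334792 to 32365665, minus strand) encodes a zinc finger protein that binds RNA and acts in growth control. It was at 90.9, 92.3 and 84.7 CPM in the NF-YA cKO group and 112, 124 and 192 CPM in the controls. All controls were higher, and replicate 3 stood well above the other two. Zmat3 fell by 0.67 on the log2 scale (SE 0.20, FDR 0.0364). The FDR was 0.0839, 0.0844 and 0.0969 without NF-YA cKO replicate 1, 2 or 3, and without NF-YA fl/fl replicate 3 the log2 fold change was -0.41 (FDR 0.00582).

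Trp53inp1, a nuclear protein that promotes p53 phosphorylation and also acts in autophagy, lies on chromosome 4 (11156441 to 11174379, plus strand). It was at 46.1, 43.9 and 55.9 CPM in NF-YA cKO SCs, against 45.5, 51.2 and 50.04 CPM in control SCs, with overlap. Trp53inp1 had a log2 fold change of -0.0081 (SE 0.12, FDR 0.963).

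Phlda3 (chromosome 1, 135766085 to 135769134, plus strand) encodes a small protein of 125 amino acids that competes with Akt for membrane lipids. It was at 83.3, 91.1 and 95.4 CPM in the NF-YA cKO libraries, and the controls were at 139, 121 and 160 CPM. The lowest control was above the highest NF-YA cKO library. Phlda3 fell by 0.64 on the log2 scale (SE 0.12, FDR 0.00786), and it was below an FDR of 0.05 in all 14 alternative fits (FDR 8.17e-05 to 0.0333).

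**Figure D3:**
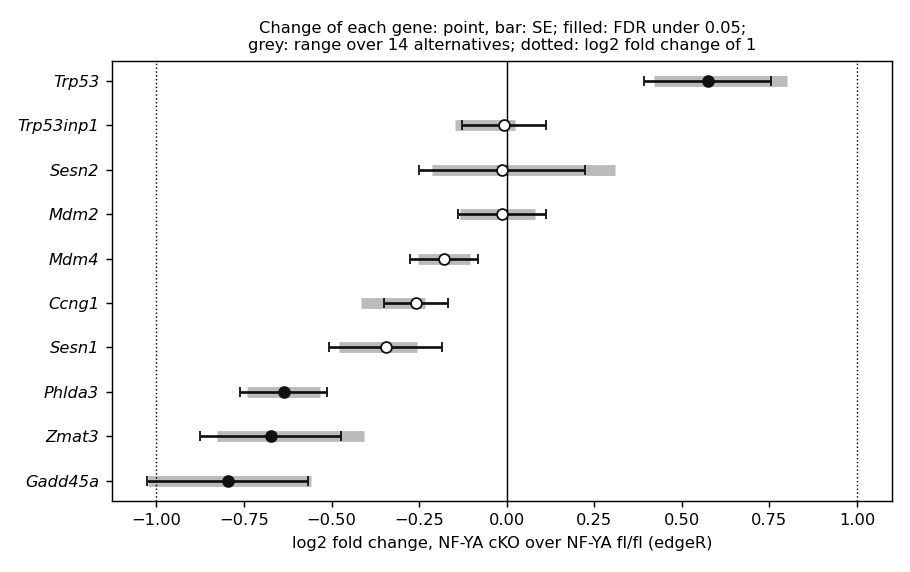
Log2 fold change (NF-YA cKO over NF-YA fl/fl) of the 10 genes from the edgeR fit, with bars of 1 SE, filled points at an FDR under 0.05, and grey bands for the range over the 14 alternative fits. Trp53 alone lies above 0 (0.57), Gadd45a is the lowest (-0.80), and the grey bands of Mdm2, Sesn2 and Trp53inp1 reach both sides of 0.

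Other p53 targets were taken from a list of 51 genes, of which 50 were tested (Rprm was too low). At an FDR under 0.05, 11 of the 50 rose, 10 fell and 29 did not pass. Of all tested genes 19.7% rose and 18.9% fell, so these counts are close to the background. Their median log2 fold change was 0.0033, beside -0.016 over all tested genes. Each functional group held genes of both directions: 2 rose and 2 fell of 14 arrest and feedback genes, 3 and 4 of 15 cell death genes, 2 and 1 of 8 repair genes, and 4 and 3 of 13 metabolic genes. By the stricter rule 3 were higher and 3 lower (4.65% and 7.67% of all tested genes). Without NF-YA cKO replicate 1, 2 or 3 the number that rose was 3, 4 or 6, and without NF-YA cKO replicate 2 or NF-YA fl/fl replicate 1 the number that fell was 5 or 6. By the stricter rule 1 was lower without NF-YA cKO replicate 1, NF-YA cKO replicate 2 or NF-YA fl/fl replicate 1. Over all tested genes the share at an FDR under 0.05, in either direction, was 38.6% with all libraries. It was 23.6%, 21.7% and 24.9% without NF-YA cKO replicate 1, 2 and 3, and 29.7% without NF-YA fl/fl replicate 1.

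The other targets with the largest increases were Trp53i11 (2.38), Gls2 (1.76), a mitochondrial glutaminase, Rpa2 (1.11), a subunit of the single-strand DNA binding protein, Plk3 (0.89), a stress kinase, and Fdxr (0.82), a reductase of the mitochondrial steroid and iron-sulfur pathways (log2 fold changes, all at an FDR of 0.0136 or less). The FDR of Plk3 was 0.0662 and 0.0522 without NF-YA cKO replicates 1 and 2, and that of Fdxr 0.0564 without NF-YA cKO replicate 1. With limma on log2(TPM + 1) and log2(TPM + 0.1) the FDR was 0.120 and 0.126 for Plk3, and 0.0660 and 0.0752 for Fdxr. Those with the largest decreases were Cdkn1a (-2.55), the CDK inhibitor p21, Pmaip1 (-1.92), the death activator Noxa, Trp53cor1 (-1.65), a long noncoding RNA next to Cdkn1a, Eda2r (-1.37), a receptor of the TNF receptor family, and Ak1 (-0.89), an adenylate kinase abundant in muscle (all at an FDR of 0.0248 or less). The call of Ak1 was lost without any one library other than NF-YA fl/fl replicate 3 (FDR 0.0608 to 0.0883). Ak1 also missed the threshold with limma on log2(TPM + 1) and log2(TPM + 0.1) (FDR 0.139 and 0.141). With the replicate number as a block its FDR was 0.0514.

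Cdkn1a was at 64.6, 63.2 and 74.4 CPM in the NF-YA cKO group and 320, 195 and 668 CPM in the controls, again with replicate 3 the highest control (log2 SE 0.43, FDR 0.00465). In contrast, the death effector Bax (72.4 ± 6.0 and 63.5 ± 16.6 CPM) had a log2 fold change of 0.19 (FDR 0.442) and Bbc3, which encodes Puma, one of 0.0091 (FDR 0.983). Without NF-YA fl/fl replicate 3 Bax rose by 0.42 (FDR 0.00896).

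Of 26 regulators and cofactors of p53, 13 rose and 7 fell at an FDR under 0.05, against 19.7% and 18.9% of all tested genes, with a median log2 fold change of 0.39 beside -0.016 over all tested genes. By the stricter rule 3 were higher and 2 lower (4.65% and 7.67% of all tested genes). The number that rose was 7, 6 or 8 without NF-YA cKO replicate 1, 2 or 3 and 8 without NF-YA fl/fl replicate 1, and the number that fell was 4 without NF-YA cKO replicate 2 or 3. In the same fits the share of all tested genes at an FDR under 0.05 was 23.6%, 21.7%, 24.9% and 29.7%, beside 38.6% with all libraries. By the stricter rule 1 regulator was lower without NF-YA cKO replicate 2. The largest increases were those of Chek1 (1.39), the replication checkpoint kinase, Npm1 (1.35) and Gnl3 (1.07), nucleolar proteins that bind Mdm2, Prmt5 (0.82), an arginine methyltransferase, and Rpl11 (0.72), a ribosomal protein that inhibits Mdm2 (all at an FDR of 0.00349 or less).

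Chek1 was at 32.4 to 34.5 CPM in NF-YA cKO and 10.1 to 15.6 CPM in NF-YA fl/fl, and Npm1 at 1478 to 1693 and 518 to 667 CPM. The proliferation markers given above were higher in the same libraries, and their part was not tested. The largest decreases among regulators were those of the kinases Dyrk2 (-1.44) and Hipk2 (-1.18), which phosphorylate p53, the inhibitor Ppp1r13l (-0.77), and the acetyltransferases Ep300 (-0.73) and Crebbp (-0.55), at an FDR of 0.0282 or less. The call of Ppp1r13l was lost without NF-YA cKO replicate 1, 2 or 3 (FDR 0.0843, 0.0726 and 0.050004) and that of Ep300 without NF-YA cKO replicate 2 or 3 (FDR 0.0711 and 0.0584).

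**Figure D4:**
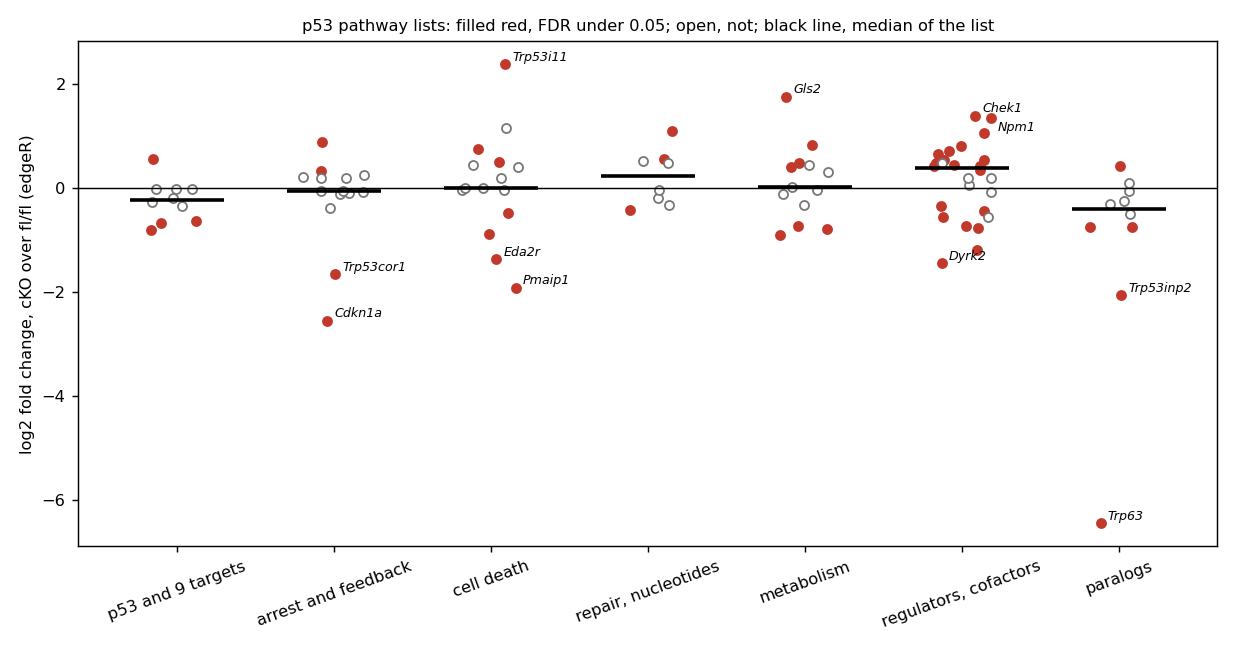
Log2 fold change (NF-YA cKO over NF-YA fl/fl, edgeR) of each tested gene, for the 10 genes, the other p53 targets in 4 functional groups, the regulators and cofactors, and the paralogs. Filled points passed an FDR of 0.05, open points did not, and a line marks each median, which is -0.22 for the 10 genes, 0.39 for the regulators and -0.40 for the paralogs.

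Of 13 paralogs of the 10 genes, 10 were tested, and Trp73, Zmat4 and Phlda2 were at 8 counts or fewer in every library. At an FDR under 0.05, 1 rose and 4 fell (19.7% and 18.9% of all tested genes), with a median log2 fold change of -0.40 beside -0.016 over all tested genes. Zmat2 rose (0.43, FDR 0.0202) and Trp63, Trp53inp2, Ccng2 and Gadd45g fell, of which Trp63 and Trp53inp2 also passed the stricter rule. Trp63, the p53 relative of epithelial stem cells, was at 11.1, 4.58 and 5.94 CPM in the controls and held 5, 2 and 2 counts in the NF-YA cKO libraries (FDR 0.000546). Trp53inp2, a regulator of autophagy that is abundant in muscle, fell from 107 ± 17.4 to 25.6 ± 1.20 CPM (log2 fold change -2.06, SE 0.14, FDR 0.000191), whereas Trp53inp1 had a log2 fold change of -0.0081. The differentiated muscle markers fell in the same libraries, and their part was not tested.

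In the other families, Ccng2 fell by 0.75 (FDR 0.0184) and Gadd45g by 0.73 (FDR 0.00885), while Gadd45b had a log2 fold change of -0.043 (FDR 0.894), Sesn3 of -0.24 (FDR 0.474), Phlda1 of -0.50 (FDR 0.0985), Zmat1 of 0.11 (FDR 0.760) and Zmat5 of -0.30 (FDR 0.306). The call of Ccng2 was lost without NF-YA cKO replicate 1, 2 or 3 (FDR 0.0603, 0.0521 and 0.0589), and that of Zmat2 without NF-YA cKO replicate 2 or 3 (FDR 0.118 and 0.117). Zmat2 also missed the threshold with limma on log2(TPM + 1) and log2(TPM + 0.1) (FDR 0.222 and 0.276) and with the replicate block (FDR 0.0634). Sesn3 passed without NF-YA fl/fl replicate 3 (-0.48, FDR 0.0252) and Phlda1 without NF-YA cKO replicate 1 (-0.77, FDR 0.0277). Differences between members of a family were not tested against each other.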

How the data were processed

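RNA-seq libraries of SCs were grouped by the genotype in their labels (NF-YA cKO or NF-YA fl/fl, 3 samples each). Nothing in the labels says that the samples are separate mice, so p-values measure the spread between these samples. The authors aligned reads to the mm10 transcriptome by bowtie2, with RSEM for quantification. Expected counts, as deposited, are unnormalized and split reads shared by several transcripts, the TPM values deposited beside them are adjusted for length and library by RSEM, and the deposited isoform files give each transcript's percent of the gene's TPM.

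Expected counts were rounded, and genes above 10 counts in 2 or more libraries (17348) entered the test in edgeR 4.0.16 (TMM, quasi-likelihood, genotype only, Benjamini-Hochberg) in R 4.3.3, where the study's methods name DESeq2. On simulated counts, 62% of genes changed 2-fold and 97% of those changed 4-fold passed an FDR of 0.05 (16983 genes). So did 11 of 16783 unchanged genes. The simulation gave both genotypes the same spread and changed few genes, unlike these data, so these rates need not hold here. Ratios and transcript shares were compared with two-sided exact permutation tests. Alternatives were DESeq2 1.42.0, its size factors, filterByExpr, no filter, limma 3.58.1 on log2(TPM + 1) and log2(TPM + 0.1), no rounding, a replicate block and leaving out each library. The 10 genes and all lists were chosen with earlier results of these data known. Named were all 10 genes and their paralogs, up to 5 genes per direction and list with the largest change at an FDR under 0.05 and at least 1 CPM, Cdkn1a, Bax, Bbc3, Pmaip1 and Wrap53, the 5 nearest profiles to Trp53 and Mdm2, and transcripts of at least 10%. Coordinates are from RefSeq, first exons from GENCODE, and plots were drawn with matplotlib 3.10.9.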

Additional observations from a re-analysis of the deposited data

How the results depend on the processing

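The fall of Phlda3 passed an FDR of 0.05 in every alternative tried. No other call among the 10 genes did, and the cause was not tested. With limma on log2(TPM + 1) and on log2(TPM + 0.1), Trp53 missed the threshold (0.51, FDR 0.0622, and 0.53, FDR 0.0968), leaving 0 of the 10 genes higher. The other targets that rose were then 3 and 3 (called by the stricter rule 1 and 1), the regulators 7 and 5 (called 0 and 0) and the paralogs 0 and 0. Over all tested genes the share at an FDR under 0.05, in either direction, was 21.5% and 21.8% with limma, beside 38.6% with edgeR. Ccng1 passed with DESeq2 (-0.28), filterByExpr (-0.30) and unrounded counts (-0.29). Mdm2, Sesn2 and Trp53inp1 turned to 0.013, 0.016 and 0.019 without a filter.

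Whether the replicate numbers pair the samples is not given by the labels. Deviations of same-numbered libraries correlated at 0.21, -0.10 and 0.05, and those of the other pairs at -0.18 to 0.15. With 3 libraries per genotype these values cannot decide it. With the replicate block, Trp53 (0.61, FDR 0.0529), Gadd45a (-0.75, FDR 0.0624) and Zmat3 (-0.63, FDR 0.0609) missed the threshold, which left 0 genes higher and 1 lower, Sesn2 turned to 0.044, and 0 paralogs rose. The share of all tested genes at an FDR under 0.05 was then 30.8%, beside 38.6% without the block.

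When single libraries were left out, the 10 genes gave 0 to 1 higher, 1 to 5 lower and 0 to 1 called lower. Other targets gave 3 to 15 higher and 5 to 11 lower (1 to 4 called lower), regulators 6 to 16 and 4 to 8 (1 to 2 called lower), and paralogs 0 to 1 higher. Log2 fold changes ranged from 0.42 to 0.80 for Trp53, -0.13 to 0.080 for Mdm2, -0.25 to -0.11 for Mdm4, -0.33 to -0.24 for Ccng1, -1.02 to -0.56 for Gadd45a, -0.48 to -0.26 for Sesn1, -0.21 to 0.31 for Sesn2, -0.83 to -0.41 for Zmat3 and -0.15 to 0.024 for Trp53inp1. Over all genes, the stricter rule called 2137 genes, 845 and 1360 with limma, and 700 to 2538 when single libraries were left out. The genes at an FDR under 0.05 were 6703, and 3738 and 3781 with limma, and 3720 to 8544 when single libraries were left out. Depth was not varied, and 3 counts correspond to 0.0705 to 0.115 CPM.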
